A study of Homo sapiens with 4 samples.

Results

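ATF4 and the unfolded protein response were followed through 39 genes, all of which had a row of their own among the 22637 genes measured by RNA-seq in 4 prostate cancer cell lines. The members were chosen by name, with earlier results of these data known. Sorted by role, they were 4 stress sensors, 8 transcription factors, 16 targets of ATF4 and 11 chaperone and degradation genes of the endoplasmic reticulum (ER). LNCaP is a castration-sensitive line, from which the castration-resistant C4-2B descends. LN-OlapR and 2B-OlapR were derived from LNCaP and C4-2B by long culture with rising doses of olaparib, an inhibitor of the DNA repair enzymes PARP1 and PARP2. All 4 lines are labelled untreated. The description gives 48 hours of plating, free of selection agent, before RNA was taken, while the study's methods give a longer time. Each line was sequenced once, so the differences below lack any check by replicates, and none carries a p-value. Whether the resistant lines are single clones is not given in the sources used here.

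Cells respond to misfolded protein in the ER, lack of amino acids and other stresses through a small set of sensors. EIF2AK3 (PERK) and EIF2AK4 (GCN2) phosphorylate the initiation factor eIF2, which slows protein synthesis in general while favouring translation of ATF4. ATF4 then drives genes of amino acid uptake, amino acid and one-carbon synthesis and stress signalling. ERN1 (IRE1) splices the mRNA of XBP1, and ATF6 is cleaved in the Golgi, and both routes induce ER chaperones and genes of ER-associated degradation (ERAD). Since ATF4 is controlled at translation, XBP1 by splicing and ATF6 by cleavage, counts per gene show the amount of their mRNA and not their activity.

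The DNA motifs through which these factors act were searched on both strands of RefSeq promoters of the GRCh38.p14 build, each covering 250 bases before the transcription start and 50 from it on. Of the 39 members, 34 had a promoter there. The core of the C/EBP-ATF response element, TGATGNAA, was found for 3 of 12 ATF4 targets, or 25%, and for 4.46% of all 27305 gene symbols. It was also found for 2 of 7 transcription factors, ATF3 and CEBPG, or 28.6%, and for 1 of 11 ER genes, or 9.09%. The windows below are shown because they hold this core, in capitals, in 2 ATF4 targets and 1 transcription factor whose ratios are given further on, with its reverse complement for CHAC1.
ASNS, chr7:97872458-97872487, minus strand: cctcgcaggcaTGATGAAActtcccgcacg
CHAC1, chr15:40953251-40953280, plus strand: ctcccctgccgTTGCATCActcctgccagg
CEBPG, chr19:33374060-33374089, plus strand: cgcgcggcgtcTGATGCAAcctgccggcaa
The ER stress response element was searched in one form with CCAAT and CCACG set 9 bases apart and another (ERSE-II) with ATTGG and CCACG set 1 base apart. One or the other was found for 7 of the 11 ER genes, or 63.6%, for 0 of 12 ATF4 targets and for 0.161% of all gene symbols. The next windows show this element, again in capitals, in 4 ER genes and in XBP1, with the reverse complement where it lies on the other strand.
CALR, chr19:12938379-12938408, plus strand: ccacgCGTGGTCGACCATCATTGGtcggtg
CRELD2, chr22:49918549-49918578, plus strand: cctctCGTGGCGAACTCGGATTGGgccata
HERPUD1, chr16:56932016-56932045, plus strand: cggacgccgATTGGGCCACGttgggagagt
HYOU1, chr11:119057264-119057293, minus strand: ggcctgggaCGTGGTCCAATgagtacgcgc
XBP1, chr22:28800597-28800626, minus strand: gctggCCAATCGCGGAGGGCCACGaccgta
HERPUD1 was the one ER gene with both kinds of motif, its C/EBP-ATF core lying at chr16:56931955-56931984 in the window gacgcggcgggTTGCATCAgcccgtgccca. The core of the unfolded protein response element, TGACGTGG, was also searched. It was found for 1 of 11 ER genes, HYOU1, or 9.09%, for 0 of 12 ATF4 targets and for 0.927% of all gene symbols. A match describes the sequence only and does not show that a factor binds there.

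The authors' estimated counts were rounded and scaled by the TMM method, and levels are given as normalized CPM, counts in each 1000000 of the effective library. Totals ran from 19950537 to 26394267 counts per library, and a count of 0 allows up to 0.112 CPM in the deepest library and 0.147 in the shallowest, taking 3 counts as the limit. All 10 luminal prostate markers examined had counts. The LNCaP library stood apart by KLK3, the gene of prostate-specific antigen, at 53.1 CPM against 1870 to 2685 in the other 3 libraries, and the comparisons with LNCaP below rest on this 1 library. Of the markers of other cells, 1 of 3 basal, 2 of 5 stromal and 1 of 3 leukocyte and endothelial genes had a row. The basal KRT14 lay between 0.112 and 0.557 CPM and the stromal COL1A1 between 7.14 and 16.1. The other stromal gene, COL3A1, was highest in LNCaP, with 1.08 CPM against 0.048 to 0.147 in the other 3 libraries. The endothelial VWF lay between 2.61 and 12.2 CPM. Both COL1A1 and VWF were lowest in 2B-OlapR and highest in C4-2B, like several members, with log2 ratios of -1.17 and -2.21 for 2B-OlapR over C4-2B and -0.88 and -0.73 for LN-OlapR over LNCaP. Their part in the ratios of the members was not tested. In bulk RNA, fewer cells of a type and less RNA per cell cannot be told apart.

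Ratios are given as log2 of the resistant over the parental library, or of C4-2B over LNCaP, with 0.5 counts added to each, followed in parentheses by their 95% exact counting interval, which covers counting error only. Members with a mean of at least 1 CPM over a pair were analysed, which kept all 39 for 2B-OlapR against C4-2B, the 2B pair, and 38 for LN-OlapR against LNCaP, the LN pair, where ALDH1L2 was too low.

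In 2B-OlapR, ATF4 targets were lower than in its parent C4-2B. Of the 16 ATF4 targets, 14 had a log2 ratio under 0, the median was -0.53, and 6 were at least 2-fold lower, while 0 were at least 2-fold higher. Over all 39 members 7 were at least 2-fold lower, or 17.9%, against 5.65% of the 15527 genes analysed in this pair, and 30 had a ratio under 0, or 76.9%, against 50% of all genes. The median of all genes was 0.00. Between the LN lines 0 members were 2-fold lower or higher, where 4.83% and 4.64% of 15373 genes were. There, 24 of 38 members had a ratio under 0, or 63.2%, against 50.4% of all genes, and 9 of 15 ATF4 targets did, with a median of -0.11. The plot of levels by role gives every member in every library.

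**Figure D1:**
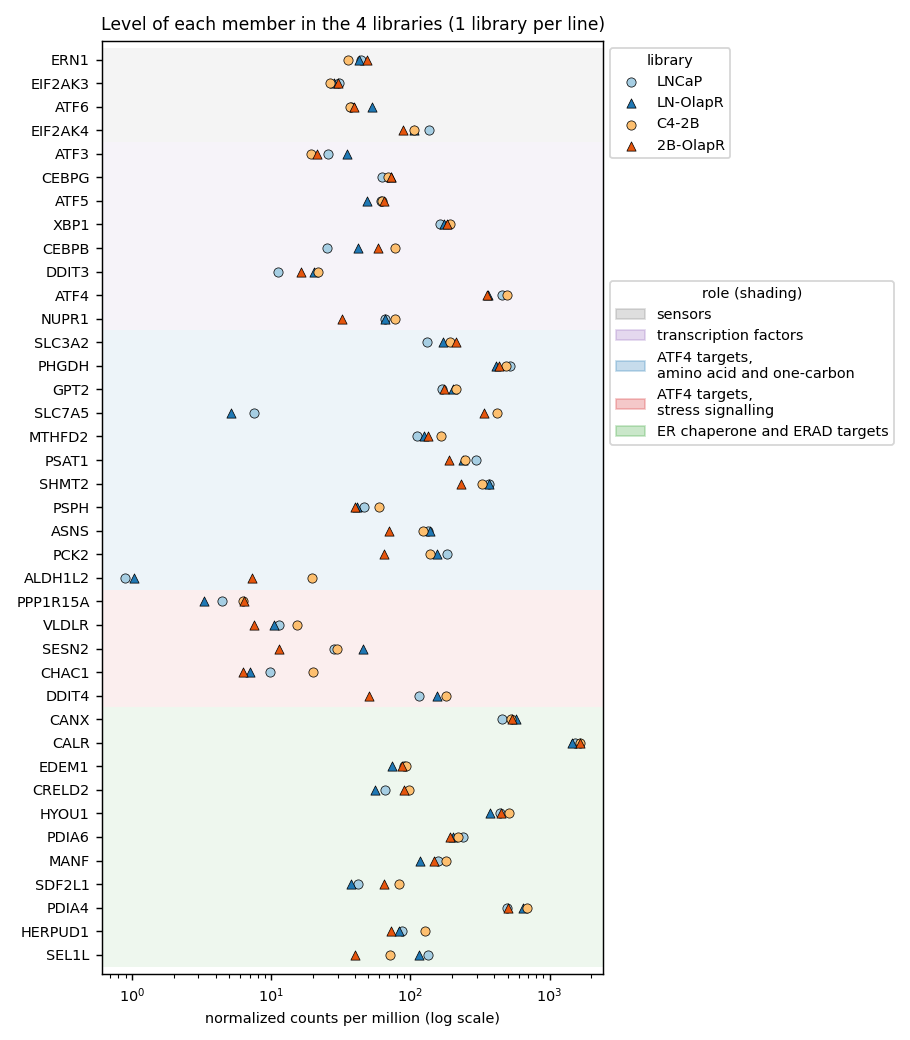
Level of the 39 members in normalized CPM (log axis), 1 point per library, with members grouped by role (shading). The 2B-OlapR triangle lies left of the other 3 libraries for DDIT4 (50.7 CPM), SESN2 (11.4), PCK2 (64.8) and NUPR1 (32.0), and the 2 LN libraries stand far left for SLC7A5 and ALDH1L2.

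The ATF4 targets of stress signalling had a median ratio of -1.38 between the 2B lines, and 4 of the 5 were at least 2-fold lower. DDIT4, an inhibitor of the growth kinase mTORC1, on chromosome 10 at 72273924 to 72276036, measured 115.5 CPM for LNCaP against 155.2 for LN-OlapR, and 181.0 for C4-2B against 50.7 for 2B-OlapR. It was thus lowest in 2B-OlapR, 3.57-fold below C4-2B, with a log2 ratio of -1.84 (-1.94 to -1.74). CHAC1, which degrades glutathione, on chromosome 15 at 40953471 to 40956512, measured 9.82 CPM for LNCaP against 7.03 for LN-OlapR, and 19.8 for C4-2B against 6.32 for 2B-OlapR. C4-2B was the library with the high level here, and the ratio of 2B-OlapR to it was -1.65 (-1.95 to -1.36). SESN2, a leucine sensor that restrains mTORC1, on chromosome 1 at 28259518 to 28282491, measured 28.5 CPM for LNCaP against 45.9 for LN-OlapR, and 29.7 for C4-2B against 11.4 for 2B-OlapR. The parental lines had nearly the same level, and the resistant lines lay on opposite sides of it, with -1.38 (-1.60 to -1.16) between the 2B lines and 0.69 (0.55 to 0.82) between the LN lines. VLDLR, a lipoprotein receptor, on chromosome 9 at 2621787 to 2660056, measured 11.3 CPM for LNCaP against 10.5 for LN-OlapR, and 15.2 for C4-2B against 7.48 for 2B-OlapR. Its 2B ratio of -1.03 (-1.31 to -0.74) was just past the 2-fold limit and fell just short of it with upper quartile scaling, whereas SEL1L, with -0.84, was the nearest member on the other side. PPP1R15A (GADD34), the phosphatase subunit that restores eIF2, stood apart from these and measured 4.46 CPM for LNCaP against 3.30 for LN-OlapR, and 6.26 for C4-2B against 6.37 for 2B-OlapR. Its ratio of 0.03 (-0.34 to 0.39) was not distinguishable from 0 at 128 and 132 counts. Between the LN lines CHAC1 had -0.48 (-0.77 to -0.20), VLDLR -0.11 (-0.36 to 0.14) and PPP1R15A -0.43 (-0.87 to -0.01), so DDIT4, with 0.43 (0.36 to 0.50), and SESN2 were the members of this group in which LN-OlapR exceeded LNCaP.

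Among the ATF4 targets of amino acid and one-carbon metabolism, 10 of 11 had a ratio under 0 between the 2B lines, with a median of -0.38. ALDH1L2, a mitochondrial folate enzyme, on chromosome 12 at 105019790 to 105084458, measured 0.893 CPM for LNCaP against 1.03 for LN-OlapR, and 19.5 for C4-2B against 7.29 for 2B-OlapR. It was thus near the filter in both LN lines and 2.68-fold below C4-2B in 2B-OlapR, at a ratio of -1.42 (-1.70 to -1.15). PCK2, the mitochondrial phosphoenolpyruvate carboxykinase, on chromosome 14 at 24094171 to 24104125, measured 183.7 CPM for LNCaP against 156.7 for LN-OlapR, and 137.4 for C4-2B against 64.8 for 2B-OlapR. Its ratio was -1.08 (-1.18 to -0.99) between the 2B lines and -0.23 (-0.29 to -0.17) between the LN lines. ASNS, asparagine synthetase, measured 133.3 CPM for LNCaP against 138.5 for LN-OlapR, and 122.7 for C4-2B against 69.8 for 2B-OlapR. The other libraries were close together and 2B-OlapR was lower, with a ratio of -0.81 (-0.91 to -0.72).

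The serine synthesis pathway was lower by smaller amounts. PHGDH, its first enzyme, had a 2B ratio of -0.17 (-0.21 to -0.13), PSAT1, the second, -0.38 (-0.44 to -0.32) and PSPH, the last, -0.57 (-0.70 to -0.45). Their LN ratios were -0.35, -0.30 and -0.17, so all 3 enzymes were lower in both resistant lines. The mitochondrial one-carbon enzymes SHMT2 and MTHFD2 had -0.49 and -0.33, and GPT2, the mitochondrial alanine aminotransferase, had -0.29, beside LN ratios of -0.01, 0.17 and 0.26. SLC7A5 (LAT1), a transporter of large neutral amino acids, had -0.33 (-0.37 to -0.28), and -0.54 (-0.88 to -0.21) between the LN lines. Its partner chain SLC3A2 measured 131.3 CPM for LNCaP against 171.2 for LN-OlapR, and 192.8 for C4-2B against 214.1 for 2B-OlapR. It was the member of this group with a ratio above 0, 0.15 (0.09 to 0.21), and also had the highest LN ratio of the group, 0.38 (0.32 to 0.45). The chains of 1 transporter therefore differed in sign in both pairs.

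Of the transcription factors, ATF4 measured 456.7 CPM for LNCaP against 363.9 for LN-OlapR, and 498.6 for C4-2B against 354.8 for 2B-OlapR. Both resistant lines lay below both parental lines, with ratios of -0.49 (-0.53 to -0.45) between the 2B lines and -0.33 (-0.37 to -0.29) between the LN lines. The ATF4 pseudogenes ATF4P3 and ATF4P4, which can share its reads, had at most 12.6 and 4.11 CPM. NUPR1, a small stress-induced chromatin protein on chromosome 16 at 28532708 to 28538974, measured 66.1 CPM for LNCaP against 65.5 for LN-OlapR, and 78.1 for C4-2B against 32.0 for 2B-OlapR. It was the one transcription factor at least 2-fold lower between the 2B lines, with -1.28 (-1.42 to -1.15), and its LN ratio was -0.01 (-0.11 to 0.09).

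DDIT3 (CHOP), a factor tied to cell death under lasting ER stress, measured 11.2 CPM for LNCaP against 20.4 for LN-OlapR, and 21.7 for C4-2B against 16.3 for 2B-OlapR. LNCaP was the low library, and the ratio was 0.87 (0.66 to 1.08) between the LN lines and -0.42 (-0.63 to -0.21) between the 2B lines. CEBPB, a partner of ATF4 on DNA, measured 25.3 CPM for LNCaP against 42.3 for LN-OlapR, and 77.1 for C4-2B against 58.4 for 2B-OlapR, with ratios of 0.74 (0.60 to 0.89) and -0.40 (-0.51 to -0.29). For both genes the 2 resistant lines lay between the 2 parental lines. ATF3, an early stress factor, measured 25.7 CPM for LNCaP against 34.9 for LN-OlapR, and 19.3 for C4-2B against 21.2 for 2B-OlapR. Its 2B ratio of 0.14 (-0.06 to 0.34) was within counting error, and its LN ratio was 0.44 (0.29 to 0.59). ATF5, a factor of the mitochondrial stress response, measured 61.5 CPM for LNCaP against 49.0 for LN-OlapR, and 62.2 for C4-2B against 64.3 for 2B-OlapR. It had the lowest LN ratio of the factors, -0.33 (-0.44 to -0.22), beside the -0.33 of ATF4. ATF5 and CEBPG, another C/EBP partner of ATF4, had 2B ratios of 0.05 and 0.08 whose intervals include 0, and CEBPG had 0.23 (0.13 to 0.33) between the LN lines. MBD6 and the methionyl-tRNA synthetase gene overlap DDIT3 on the opposite strand in GENCODE 29, NUP62 overlaps ATF5 and ALG12 overlaps CRELD2 likewise, and the sources used here do not say whether strand was used in counting, so these values are uncertain.

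**Figure D2:**
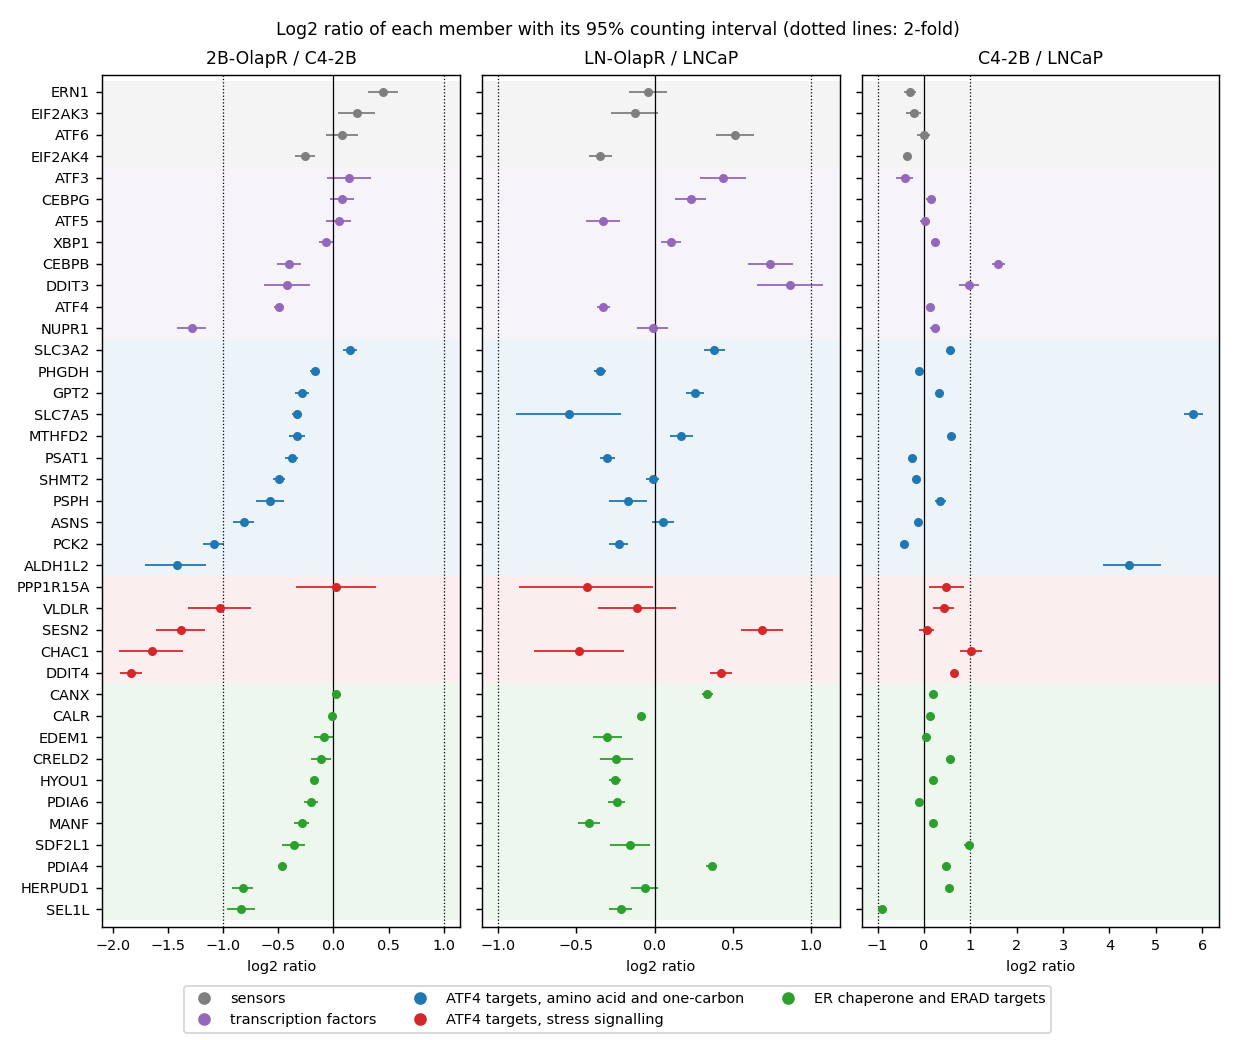
Log2 ratio of each member (points) with its 95% exact counting interval (bars) for 2B-OlapR over C4-2B, LN-OlapR over LNCaP and C4-2B over LNCaP, where dotted lines mark 2-fold and each panel has its own axis. In the 2B panel 4 of the 5 stress signalling targets lie left of the 2-fold line, in the LN panel every member analysed lies within the lines, and in the last panel SLC7A5 (5.81) and ALDH1L2 (4.42) lie far to the right.

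XBP1 differed little between libraries. It measured 162.5 CPM for LNCaP against 174.8 for LN-OlapR, and 192.0 for C4-2B against 183.0 for 2B-OlapR, with ratios of -0.07 (-0.13 to -0.00) between the 2B lines and 0.11 (0.04 to 0.17) between the LN lines, and its spliced form cannot be read from these counts. ERN1 measured 44.0 CPM for LNCaP against 42.7 for LN-OlapR, and 35.7 for C4-2B against 48.8 for 2B-OlapR. It had the highest ratio of all members between the 2B lines, 0.45 (0.31 to 0.59), while its LN ratio was -0.04 (-0.16 to 0.08). ATF6 measured 37.3 CPM for LNCaP against 53.2 for LN-OlapR, and 37.1 for C4-2B against 39.1 for 2B-OlapR. It showed the other order, with 0.08 (-0.07 to 0.22) between the 2B lines and 0.51 (0.39 to 0.63) between the LN lines. EIF2AK4 measured 136.1 CPM for LNCaP against 107.0 for LN-OlapR, and 105.5 for C4-2B against 88.5 for 2B-OlapR. It was the one sensor lower in both resistant lines beyond counting error, with -0.25 (-0.34 to -0.16) and -0.35 (-0.42 to -0.27). EIF2AK3 had 0.21 (0.04 to 0.38) between the 2B lines and -0.13 (-0.28 to 0.02) between the LN lines.

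The ER chaperone and ERAD genes lay slightly below 0 in both pairs. Between the 2B lines 10 of 11 had a ratio under 0 with a median of -0.20, and between the LN lines 9 of 11 with a median of -0.22, against 50% and 50.4% of all genes. SEL1L, the adaptor of the ERAD ubiquitin ligase, measured 134.6 CPM for LNCaP against 115.8 for LN-OlapR, and 72.0 for C4-2B against 40.3 for 2B-OlapR. Both 2B lines were lower than both LN lines, and between the 2B lines the ratio was -0.84 (-0.96 to -0.71). HERPUD1, an ERAD scaffold whose promoter held both motifs above, measured 87.2 CPM for LNCaP against 83.4 for LN-OlapR, and 127.7 for C4-2B against 72.2 for 2B-OlapR. C4-2B was the high library, and the ratios were -0.82 (-0.92 to -0.73) between the 2B lines and -0.06 (-0.15 to 0.02) between the LN lines. PDIA4, a disulfide isomerase, measured 497.5 CPM for LNCaP against 640.8 for LN-OlapR, and 691.5 for C4-2B against 500.4 for 2B-OlapR. It had ratios of opposite sign, -0.47 (-0.50 to -0.43) between the 2B lines and 0.37 (0.33 to 0.40) between the LN lines. MANF, a secreted ER stress factor, measured 157.2 CPM for LNCaP against 117.4 for LN-OlapR, and 180.5 for C4-2B against 148.0 for 2B-OlapR. It was the lowest ER gene of the LN pair with -0.42 (-0.49 to -0.35), and had -0.29 between the 2B lines. SDF2L1 and HYOU1, cochaperones of the ER chaperone BiP, had 2B ratios of -0.36 and -0.17 and LN ratios of -0.16 and -0.25. CRELD2, PDIA6 and EDEM1 (a mannosidase-like ERAD factor) had 2B ratios of -0.11, -0.20 and -0.08 and LN ratios of -0.24, -0.24 and -0.30.

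The lectin chaperones CALR and CANX were among the most abundant members, with ratios near 0 between the 2B lines. CALR measured 1529 CPM for LNCaP against 1440 for LN-OlapR, and 1666 for C4-2B against 1649 for 2B-OlapR, and per kilobase of its longest transcript it ranked first of the 39 members in each library, from 756.8 to 875.5 CPM per kilobase. CANX measured 457.7 CPM for LNCaP against 578.1 for LN-OlapR, and 527.9 for C4-2B against 537.6 for 2B-OlapR, and was higher in LN-OlapR than in LNCaP by a log2 ratio of 0.34 (0.30 to 0.37). Their 2B ratios were -0.02 (-0.04 to 0.01) and 0.03 (-0.01 to 0.06), and the sign of each turned under at least 1 other scaling. At the other end, VLDLR was the lowest per kilobase in C4-2B and 2B-OlapR, with 1.66 and 0.816 CPM per kilobase.

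The motif-bearing members did not share 1 ratio. Between the 2B lines CHAC1 and ASNS had -1.65 and -0.81. CEBPG, ATF3 and SLC3A2, which also hold the C/EBP-ATF core, had 0.08, 0.14 and 0.15. The 7 ER genes with the ER stress response element ranged from -0.82 for HERPUD1 to 0.03 for CANX.

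The 2 pairs have no library in common and were set side by side. Of the 38 members analysed in both, 20 had ratios under 0 in both pairs, or 52.6%, against 29.1% of the 14602 genes analysed in both. For the ER genes this was 9 of 11, or 81.8%, and for the ATF4 targets 8 of 15, or 53.3%. A further 9 members were lower in 2B-OlapR and higher in LN-OlapR than their parents, or 23.7%, which is close to the 21.2% of all genes. The ATF4 targets had the lower ratio between the 2B lines in 12 of 15 cases, or 80.0% against 50.4% of all genes. The ER genes did so in 5 of 11, or 45.5%. With 1 library a line, the difference between the pairs was not tested.

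**Figure D3:**
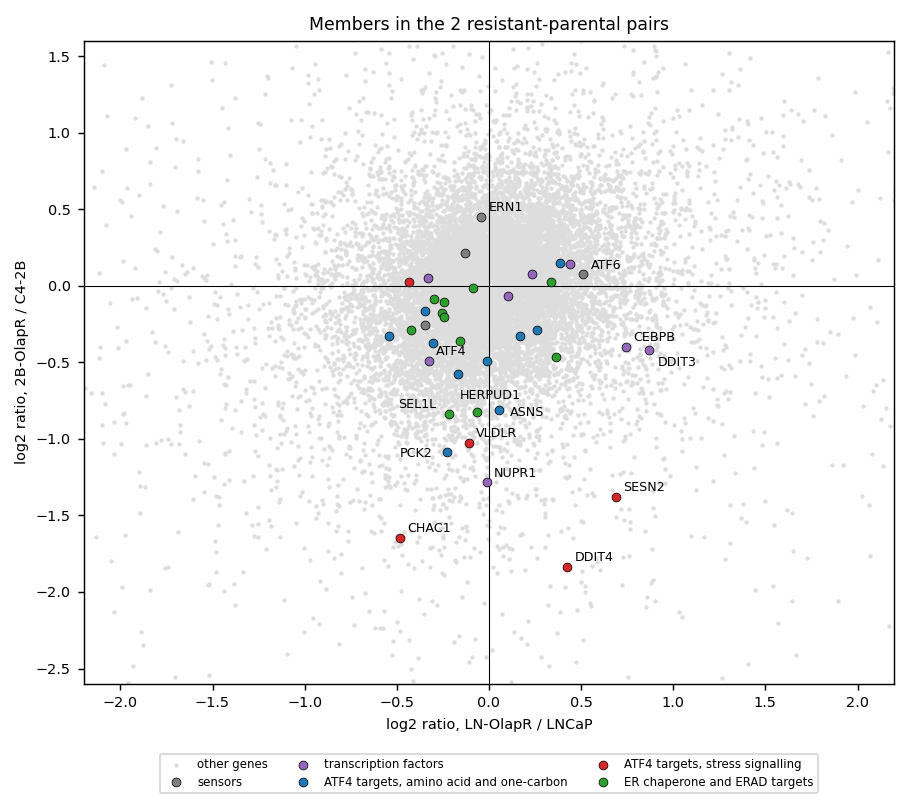
Log2 ratio of members between the LN lines (horizontal) and between the 2B lines (vertical), coloured by role, over the other genes analysed in both pairs (grey; points beyond the axes are not drawn). DDIT4 (0.43 and -1.84) and SESN2 (0.69 and -1.38) lie low on the right, CHAC1 (-0.48 and -1.65) low on the left, and most ER genes lie in a narrow range below 0.

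C4-2B was compared with LNCaP to see how the members differed between the castration-resistant line and its precursor before any olaparib. This comparison shares LNCaP with the LN pair and C4-2B with the 2B pair, so a high C4-2B value enters it and the 2B pair with opposite signs. All 39 members were analysed, ALDH1L2 only through its level in C4-2B. There were 4 members at least 2-fold higher in C4-2B, or 10.3% against 8.0% of 15580 genes, and 0 at least 2-fold lower, against 7.18%, so the number past 2-fold was near the background. A ratio above 0 was found for 27 members, or 69.2%, against 48.6% of all genes. The median was 0.39 for the ATF4 targets and 0.20 for the ER genes.

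SLC7A5 measured 7.51 CPM for LNCaP against 5.14 for LN-OlapR, and 421.7 for C4-2B against 336.0 for 2B-OlapR. The 2 backgrounds were far apart, 56.0-fold between the parental lines with a log2 ratio of 5.81 (5.61 to 6.02), while the lines within a pair were close. Its pseudogenes SLC7A5P1 and SLC7A5P2 had at most 0.586 and 2.15 CPM and 0 counts in both LN libraries. SLC3A2 had 131.3 CPM in LNCaP and 192.8 in C4-2B, with a ratio of 0.55 (0.49 to 0.62), so the partner chains of this transporter differed between the backgrounds by very unequal amounts. ALDH1L2 showed the same division by background, with 24 counts in each LN library, 400 in C4-2B and a ratio of 4.42 (3.86 to 5.11). CEBPB was 3.05-fold higher in C4-2B, with 1.61 (1.48 to 1.74), and CHAC1 2.02-fold, with 1.01 (0.79 to 1.24). SDF2L1, which measured 42.2 CPM for LNCaP against 37.8 for LN-OlapR, and 82.6 for C4-2B against 64.4 for 2B-OlapR, had 0.97 and was the nearest member under 2-fold, followed by DDIT3 with 0.96. SEL1L was the lowest member, with -0.90 (-0.99 to -0.81). ATF4 itself differed little between the parental lines, with 0.13 (0.09 to 0.16), and XBP1 had 0.24 (0.18 to 0.30).

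Further genes of the pathway were taken from lists that were not part of the 39 members. These lists too were chosen with earlier results of these data known, so they are not an independent check. For comparison, 50% of all genes had a ratio under 0 between the 2B lines and 50.4% between the LN lines. The shares of all genes lower by 2-fold or more were 5.65% and 4.83%. Of 16 other ATF4 targets of transport and synthesis, 14 had a ratio under 0 between the 2B lines, with a median of -0.35 and 1 at least 2-fold lower, CTH, an enzyme of cysteine synthesis, at -1.40 (-1.79 to -1.04). SLC1A4, a neutral amino acid transporter, was the highest of them in both pairs, with 0.37 and 0.77. Between the LN lines 3 of the 15 analysed were under 0, the lowest being SHMT1, the cytosolic serine hydroxymethyltransferase, with -0.36. BCAT1 was too low to be analysed there, with 42 counts in LNCaP and 0 in LN-OlapR. Of 12 cytosolic aminoacyl-tRNA synthetases, 8 were under 0 between the 2B lines with a median of -0.33, from AARS1 at -1.24 (-1.29 to -1.18) to TARS1 at 0.10. Between the LN lines 6 were under 0, from CARS1 at -0.53 to EPRS1 at 0.56.

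All 10 other ATF4 targets of signalling that were analysed between the 2B lines had a ratio under 0, with a median of -0.80. Of these, 5 were at least 2-fold lower, or 50%, against 5.65% of all genes. Whether ATF4 or another regulator set these ratios was not tested. Between the LN lines 4 of the 10 were under 0, or 40%, and the median was 0.20. JDP2, a bZIP repressor, measured 17.7 CPM for LNCaP against 8.10 for LN-OlapR, and 19.3 for C4-2B against 2.46 for 2B-OlapR, so both resistant lines were lower, by ratios of -2.96 and -1.12. TRIB3, a pseudokinase that binds ATF4, had the highest ratio of this list between the 2B lines, -0.08 (-0.16 to 0.01), and 0.31 (0.22 to 0.40) between the LN lines. GDF15, a secreted stress cytokine, measured 40.7 CPM for LNCaP against 531.6 for LN-OlapR, and 118.8 for C4-2B against 27.2 for 2B-OlapR. It lay at 3.71 between the LN lines and at -2.13 between the 2B lines. In the LN pair GDF15 was the only gene of this list past the upper 2-fold limit, and JDP2 the only gene past the lower. The other 3 genes at least 2-fold lower between the 2B lines were CDKN1A (p21), an inhibitor of the cell cycle, with -2.06, the secreted peptide gene ADM2 with -1.39 and the angiogenic factor gene VEGFA with -1.05.

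The other ER folding and ERAD genes were split evenly between the 2B lines, with 12 of 24 under 0 and a median of -0.01. Between the LN lines 11 of 24 were under 0, with a median of 0.04, so this list lacked the lower ratios of the ER members. HSPA5 (BiP), the main ER chaperone, measured 1008 CPM for LNCaP against 801.9 for LN-OlapR, and 1130 for C4-2B against 1029 for 2B-OlapR, with ratios of -0.13 between the 2B lines and -0.33 between the LN lines. HSP90B1 (GRP94), the ER form of HSP90, was lowest in both pairs, with -0.93 (-0.97 to -0.90) and -0.45 (-0.47 to -0.42). DERL3, a derlin of the ERAD channel, was highest in both, where C4-2B had 6.45 CPM, 2B-OlapR 26.8 and the ratio was 2.05 (1.78 to 2.34), and with 0.75 (0.31 to 1.20) between the LN lines. The genes of eIF2 control had medians of 0.00 and -0.02, from EIF2B2 at -0.36 to PPP1R15B at 0.68 between the 2B lines and from EIF2B3 at -1.14 to EIF2B5 at 0.41 between the LN lines. The genes of mitochondrial stress and protein quality control had a median of -0.06 between the 2B lines and 0.26 between the LN lines. The mitochondrial stress messenger DELE1 was higher in both resistant lines, with 0.71 and 0.72 (highest of its list between the LN lines, where SPG7 was lowest at -0.25). The mitochondrial HSP70 gene HSPA9 was the highest between the 2B lines with 0.79, and OMA1, the protease that cleaves DELE1, the lowest with -0.76.

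**Figure D4:**
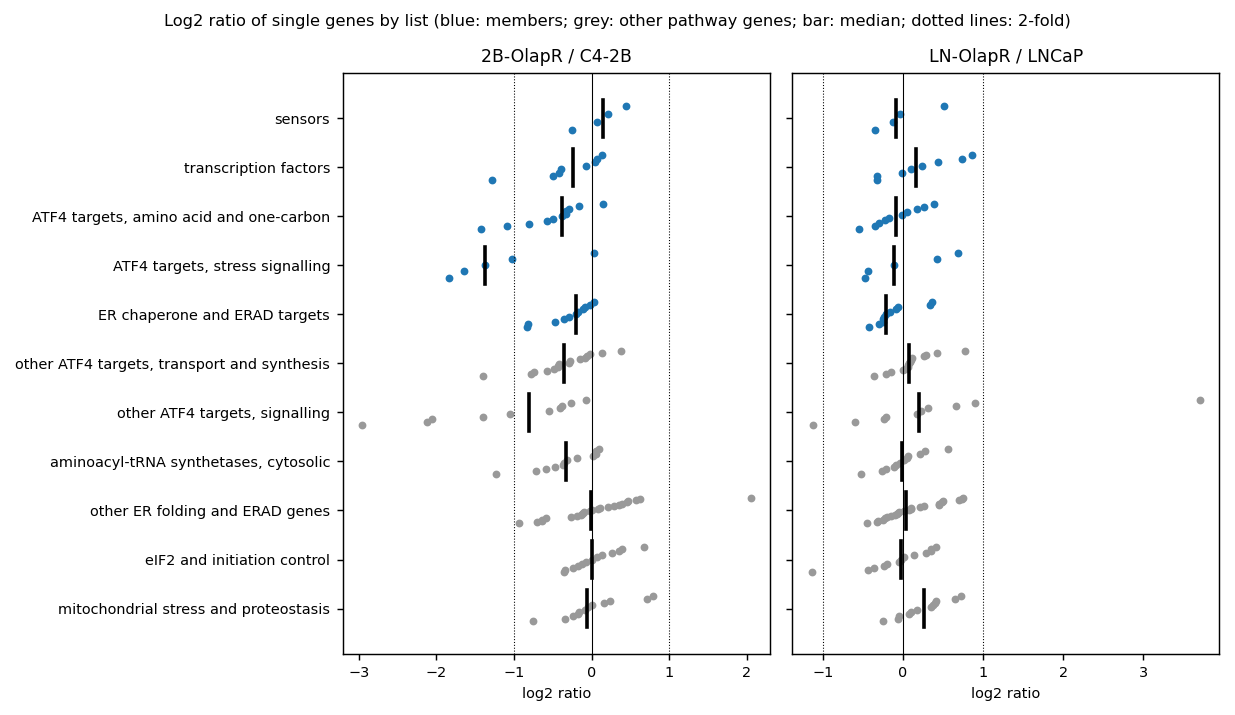
Log2 ratio of single genes (points) by list for 2B-OlapR over C4-2B and LN-OlapR over LNCaP, with the median of each list as a bar, members in blue and other genes of the pathway in grey, and dotted lines at 2-fold. In the 2B panel the 4 lists of ATF4 targets have medians from -1.38 to -0.35, whereas the 2 lists of ER genes have -0.20 and -0.01.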

How the data were processed

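RNA-seq was performed on 4 cell lines with 1 library each, made from 100 ng of total RNA as stranded mRNA libraries. The submitters' processing notes name STAR, Partek and GRCh38 (hg38) without versions. The authors deposited estimated counts per gene, not normalized, each gene summing to at least 10 over the libraries, and 46.2% of the deposited values are not whole. They were rounded, and effective library sizes were computed with TMM in edgeR 4.0.16 (R 4.3.3). Ratios, intervals and figures were made in Python 3.11.15 with SciPy 1.17.1. The ratios and intervals were tested on simulated counts with counting error only, which cannot show how they behave under variation between cultures. Levels and ratios have exact binomial (Clopper-Pearson) intervals at 95%. No model was fitted and no gene set was tested. Promoters and gene positions are from RefSeq (GRCh38.p14), transcript lengths and overlaps from GENCODE 29, so they describe those annotations. Promoters of ALDH1L2, GPT2, NUPR1, PSPH and SHMT2 were not analysed here.

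The members and lists were chosen with earlier results of these data known. Full values are given for members at least 2-fold different in a comparison, for ATF4, XBP1, DDIT3, ATF3, ASNS and CHAC1 and for the extremes of each role. Of the other lists the extremes, HSPA5 and TRIB3 are named, while the full values of HERPUD1 and CALR, and CDKN1A, ADM2, VEGFA and the 2B ratios of GDF15 and DELE1, were chosen after values were seen. The alternatives were total counts, DESeq2 1.42.0 size factors and upper quartile factors as scaling, a pseudocount of 2, no minimum or 10 CPM as minimum, and unrounded values.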

Additional observations from a re-analysis of the deposited data

Results flagged for a closer look

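For 8 of the 39 members the counting intervals excluded 0 on opposite sides in the 2 pairs, each lower in 2B-OlapR and higher in LN-OlapR than in its parent. With 1 library per line these differences between the pairs were not tested. The share of all genes meeting this rule was not computed. By sign alone, 23.7% of the members analysed in both pairs were lower in 2B-OlapR and higher in LN-OlapR, close to the 21.2% of all genes. The difference of the log2 ratios, the 2B pair minus the LN pair, was -2.26 for DDIT4, -2.07 for SESN2, -1.29 for DDIT3, -1.14 for CEBPB, -0.83 for PDIA4, -0.55 for GPT2, -0.50 for MTHFD2 and -0.17 for XBP1. XBP1 was marginal, as its 2B interval ended at -0.005, and its place among the 8 depends on the scaling. Scaling with DESeq2 size factors shifted member ratios by a median of 0.008.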

How the results depend on the processing

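The counts of members past 2-fold were 0 higher in both resistant pairs, 0 lower in the LN pair and 4 higher and 0 lower in C4-2B against LNCaP under all 7 alternatives, and 7 lower in the 2B pair, or 6 with upper quartile scaling, where VLDLR came just short of the limit. For the ATF4 targets the median lay from -0.58 to -0.51 between the 2B lines. Between the LN lines it lay from -0.19 with total counts to 0.02 with the minimum of 10 CPM, so its sign there depends on the setting. The ER genes had medians from -0.24 to -0.18 for 2B and from -0.30 to -0.21 for LN, where scaling by total counts gave -0.30. Of 116 ratios of members, 5 changed sign with the scaling, all of them within 0.1 of 0, including ASNS in the LN pair and CALR, CANX and PPP1R15A in the 2B pair. Scaling by total counts shifted ratios by up to 0.084 and took 24 of the 116 outside their counting interval. Upper quartile scaling took 2 outside it. No replicate could be left out and no paired analysis was possible because each line has 1 library.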
